A study of Mus musculus with 12 samples.

Results

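Vegfa, Kdr, Angpt1 and Angpt2 are the genes of a mouse expression panel that encode the main VEGF ligand, its signalling receptor and the 2 angiopoietins that maintain blood vessels. They were taken by name from the deposited table, in which all 4 were found among 770 genes, and all 4 were among the 677 genes that passed the filter on low values. Kidney RNA from 12 female mice aged 8 to 10 weeks was measured once per mouse. The KO NTS group held 3 Aim2 KO mice that received nephrotoxic serum, which induces anti-GBM glomerulonephritis, an antibody-mediated injury of the glomerular basement membrane, and whose kidneys were examined at day 9. The KO control group held 3 untreated Aim2 KO mice. The WT NTS group held 3 Aim2 WT mice given the same serum and examined at the same day, and the WT control group held 3 untreated Aim2 WT mice. By the series title, the KO mice are on B6 and the WT mice are their F1 littermate controls, so any difference in strain background and the Aim2 genotype cannot be told apart. Aim2 encodes a cytosolic DNA sensor that can start an inflammasome. Its own signal was not analysed here, and the genotypes are therefore given as labelled.

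VEGF-A is secreted in the kidney by podocytes and by tubule epithelium, and it acts on endothelial cells of the neighbouring glomerular and peritubular capillaries. There it binds the receptor tyrosine kinase VEGFR2, encoded by Kdr, which carries the survival and permeability signals of the VEGF pathway. Angiopoietin-1 is made by cells around the vessel wall and activates the endothelial receptor Tie2, which stabilises the vessel. Angiopoietin-2 is released by endothelial cells and, depending on context, weakens or activates the same receptor.

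RefSeq promoter sequences were at hand for Vegfa and Kdr, a ligand and receptor whose levels were low in the same kidneys. The 250 bases before a RefSeq transcript start are shown for each, from GRCm38.p6, both on the minus strand of the chromosome and written 5′ to 3′. The Vegfa window is chr17:46032378-46032627, and the Kdr window is chr5:75978456-75978705. The RefSeq gene record of Kdr reaches further upstream than its window, so the window lies inside the annotated gene, and a start beyond it was not examined. Capitals mark GGGCGG, the GC box, and ACGTG or GCGTG, the 2 forms of the core that hypoxia-inducible factors bind, on either strand.
Vegfa promoter: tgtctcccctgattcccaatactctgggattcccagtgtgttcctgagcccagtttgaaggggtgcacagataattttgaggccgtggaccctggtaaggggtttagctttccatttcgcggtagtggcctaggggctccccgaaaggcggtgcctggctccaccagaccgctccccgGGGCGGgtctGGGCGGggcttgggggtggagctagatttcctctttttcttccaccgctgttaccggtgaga
Kdr promoter: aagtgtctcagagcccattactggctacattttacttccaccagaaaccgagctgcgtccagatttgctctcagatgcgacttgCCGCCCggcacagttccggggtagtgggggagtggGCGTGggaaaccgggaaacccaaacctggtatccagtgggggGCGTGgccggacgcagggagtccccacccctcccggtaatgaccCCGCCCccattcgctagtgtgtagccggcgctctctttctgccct
The Vegfa window shown held 2 GC boxes and 0 hypoxia cores. The window of a second annotated Vegfa start, which lies within the gene and is not shown, held 1 ACGTG, 1 GCGTG and 1 GC box. As that window is inside the gene, these matches may lie in transcribed sequence of longer Vegfa transcripts and not in a promoter. Whether any match shown or counted is bound was not tested. The Kdr window held 2 GC boxes, both read as CCGCCC on the strand shown, and 2 copies of GCGTG. Of 32851 promoters of this length, 32.7% held a GC box, 28.2% held GCGTG and 16.6% held ACGTG. The AP-1 motif TGANTCA, found in 6.7% of promoters, was in none of these windows.

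The deposited values are a normalized signal, made by scaling each sample so that 20 housekeeping genes have the same geometric mean, and each value is the hybridization signal of 1 probe. Signals can be compared between samples only as far as this scaling holds, and they cannot be compared between genes. A signal summed over several genes is therefore weighted towards the genes with high signal. The signal summed over all endogenous genes was 1335199 to 1346839 in KO NTS kidneys, 596307 to 638895 in KO control kidneys, 601490 to 967120 in WT NTS kidneys and 609251 to 648649 in WT control kidneys. WT NTS 1 held the 967120 and stood apart from the other 2 WT NTS kidneys, which had 601490 and 691715. WT control 1 had more genes at the lower limit of detection (140) than the other 11 kidneys (53 to 126). Results with both of these kidneys left out are given below. The labels do not give an assay run or lot, so no batch could be tested.

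After serum, 3 of the 4 genes, Vegfa, Kdr and Angpt1, fell in Aim2 KO kidneys, by 1.69-fold, 2.47-fold and 2.48-fold, and the same 3 genes were lower in KO NTS kidneys than in WT NTS kidneys, by 1.58-fold, 1.87-fold and 1.69-fold. Each of the 3 KO NTS kidneys lay below all 9 other kidneys for Vegfa, Kdr and Angpt1. Over all genes tested, 13.9% had KO NTS kidneys wholly below KO control kidneys, and 3.4% had them wholly below WT NTS kidneys. The share with KO NTS kidneys below all 9 others was not counted. Angpt2 behaved otherwise, with overlapping KO NTS and WT NTS kidneys, low values in most serum-treated kidneys of either genotype and no call in any comparison. Among the 677 genes, 8.57% were called lower and 39.6% higher in KO NTS against KO control kidneys, and 2.36% were called lower and 31.2% higher in KO NTS against WT NTS kidneys. A call means an adjusted p under 0.05 in limma, fitted on log2(signal + 1) over all genes tested with Benjamini-Hochberg adjustment. The KO NTS kidneys enter both of these comparisons, which are therefore not independent.

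**Figure D1:**
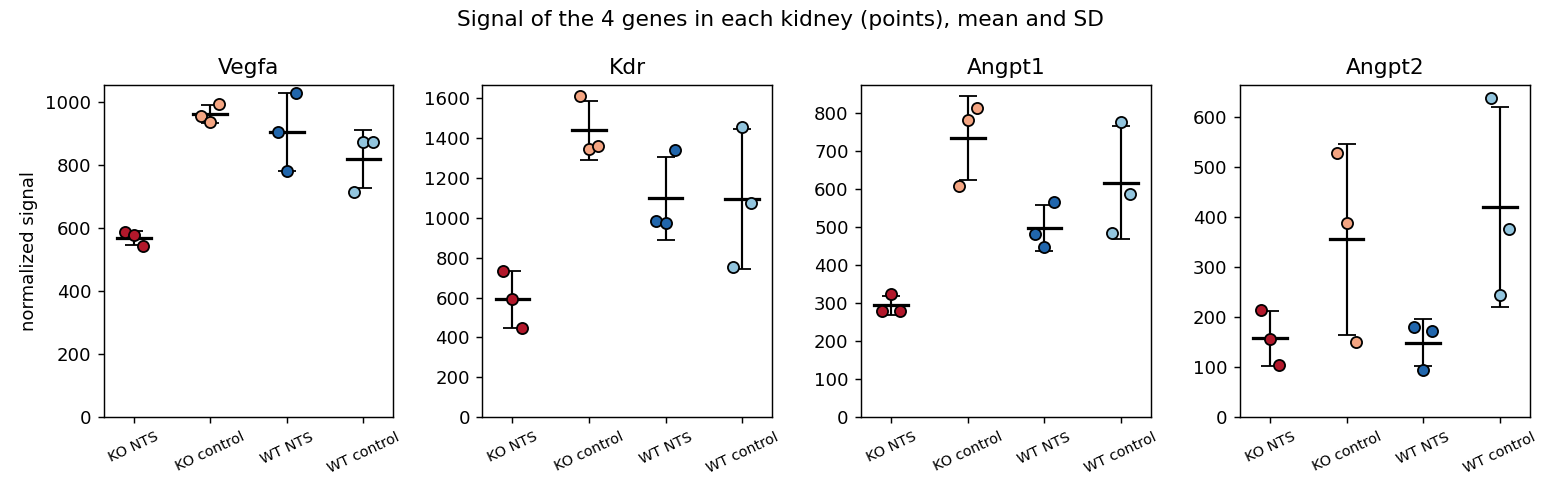
Deposited normalized signal of Vegfa, Kdr, Angpt1 and Angpt2 in each of the 12 kidneys, 1 panel per gene, with 1 point per kidney, groups on the horizontal axis and a bar at the mean of 3 kidneys with its SD. The KO NTS points of Vegfa (543.72 to 586.04), Kdr (449.74 to 734.51) and Angpt1 (279.05 to 322.83) lie under all other points of their panels, while the Angpt2 points of the groups overlap more.

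Vegfa, the ligand, had signals of 586.04, 576.55 and 543.72 in KO NTS kidneys, against 955.8, 936.01 and 992.95 in KO control kidneys. In WT NTS kidneys its signals were 904.52, 779.93 and 1029.96, against 713.56, 871.83 and 873.3 in WT control kidneys. The KO NTS kidneys were the lowest 3 of the 12, and the lowest other kidney was WT control 1. The means were 569 ± 22.2 in KO NTS and 962 ± 28.9 in KO control kidneys (SD, n = 3 each). In KO kidneys the log2 difference after serum was -0.76 (SE 0.14, 95% interval -1.06 to -0.45, limma adjusted p = 0.00104). In WT kidneys the means were 905 ± 125 with serum and 820 ± 91.8 without (SD, n = 3 each). The groups overlapped, and the log2 difference was 0.14 (SE 0.14, 95% interval -0.17 to 0.45, limma adjusted p = 0.595). KO NTS kidneys differed from WT NTS kidneys by -0.66 on the log2 scale (SE 0.14, limma adjusted p = 0.00621), and these groups did not overlap. With each sample scaled on the positive control probes of the assay instead of the housekeeping genes, Vegfa kept its direction but lost both calls, at -0.48 (limma adjusted p = 0.0647) against KO control and -0.51 (limma adjusted p = 0.068) against WT NTS kidneys.

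The panel held 3 of the 6 VEGF ligands looked for. Vegfb, a relative that binds the other VEGF receptor Flt1 and not Kdr, averaged 883 ± 23.9 in KO NTS kidneys and 1213 ± 89.2 in KO control kidneys (SD, n = 3 each). It fell in KO kidneys, with a log2 difference of -0.46 (limma adjusted p = 0.0123), and was lower in KO NTS than in WT NTS kidneys (-0.39, limma adjusted p = 0.0377). Neither Vegfb call was kept with the scaling on positive controls. Vegfc, the lymphatic ligand, averaged 160.2 ± 16.9 in KO NTS and 156.3 ± 16.4 in KO control kidneys (SD, n = 3 each), a log2 difference of 0.04 (limma adjusted p = 0.889) whose sign changed between scalings. So 2 of 3 ligands were called lower after serum in KO kidneys and 0 higher, with a median of -0.46 beside a median of 0.42 over all genes tested. In WT kidneys 0 of the 3 ligands were called by limma, and 0 had an unadjusted p under 0.05, beside 152 of all 677 genes.

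Kdr, the receptor, had signals of 734.51, 590.59 and 449.74 in KO NTS kidneys, against 1608.32, 1347.2 and 1357.9 in KO control kidneys. In WT NTS kidneys its signals were 985.08, 971.78 and 1339.34, against 751.77, 1455.3 and 1075.4 in WT control kidneys. All KO NTS kidneys were below all others, and the nearest of the others was WT control 1. The log2 difference after serum was -1.30 in KO kidneys (SE 0.25, 95% interval -1.84 to -0.77, limma adjusted p = 0.0011). It was 0.04 in WT kidneys (SE 0.25, 95% interval -0.49 to 0.58, limma adjusted p = 0.944), where the groups overlapped. KO NTS kidneys were lower than WT NTS kidneys by -0.90 on the log2 scale (SE 0.25, limma adjusted p = 0.0156). That last call was lost without KO NTS 3 (-0.72, limma adjusted p = 0.0736), without WT NTS 3 (-0.75, limma adjusted p = 0.0729) and with positive control scaling (-0.76, limma adjusted p = 0.0527).

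Flt1, the VEGF receptor that also acts as a decoy, was the other of 2 receptors on the panel, of 5 looked for. It had signals of 1421.83, 1338.81 and 630.98 in KO NTS kidneys, against 1525.11, 1447.84 and 1550.26 in KO control kidneys. These groups did not overlap, but KO NTS 3 lay far below the other 2, and the log2 difference of -0.50 was not called (limma adjusted p = 0.156). Against WT NTS kidneys the Flt1 difference was -0.25 (limma adjusted p = 0.497). Thus 1 of 2 receptors was called lower in each of these comparisons.

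Kdr was set beside other endothelial genes, since in whole-kidney RNA fewer cells of a type and less RNA per cell cannot be told apart. The panel held 7 of the 21 endothelial markers listed, Pecam1, Cdh5, Robo4, Icam2, Mmrn2, Tie1 and Flt1, and none was at the detection floor. Their summed signal was 2834 to 4898 in KO NTS kidneys, 4738 to 5439 in KO control kidneys, 3705 to 5099 in WT NTS kidneys and 4903 to 6033 in WT control kidneys. In KO kidneys 0 of the 7 were called after serum by limma, and 3 had an unadjusted p under 0.05, beside 370 of all 677 genes. The log2 differences of the 7 ran from -0.57 for Mmrn2, an endothelial matrix protein, to 0.25 for Cdh5, the cadherin of endothelial junctions. Their median was -0.46, beside 0.42 over all genes tested, and 6 of the 7 were below 0, beside 30.3% of all genes. After serum in WT kidneys 0 of the 7 were called, but 7 were below 0, beside 41.5% of all genes, with a median of -0.37. Against WT NTS kidneys, 1 of the 7, Cdh5, was called higher (0.42, limma adjusted p = 0.0466), and the median was -0.09. That Cdh5 call was made in 2 of 5 scalings, over which its difference ran from -0.17 to 0.57. The counts depend on the scaling: in KO kidneys 7 of the 7 were called lower with each sample centred on its median and 5 with quantile normalization. Scaling on 14 housekeeping genes gave 2 lower, while 1, Cdh5, was called higher with positive control scaling.

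A ratio within a kidney does not contain the scaling factor, so Kdr was also expressed relative to the mean log2 signal of Pecam1, the platelet-endothelial adhesion molecule, Cdh5 and Tie1, an endothelial orphan receptor. These 3 were the genes on the panel out of 8 endothelial genes named for the ratio. The value was 0.28, 0.01 and 0.08 in KO NTS kidneys, against 1.33, 1.25 and 1.23 in KO control kidneys. It was 1.09, 1.17 and 1.24 in WT NTS kidneys, against 0.22, 1.37 and 0.85 in WT control kidneys. The KO NTS kidneys lay below all KO control and WT NTS kidneys, while WT control 1 lay within the KO NTS range. Relative to these 3 endothelial genes, Kdr was 2.21-fold lower in KO NTS than in KO control kidneys, a log2 difference of -1.15 (SE 0.09). It was 2.06-fold lower in KO NTS than in WT NTS kidneys, a log2 difference of -1.04 (SE 0.09). With all 7 endothelial markers in the ratio, a choice made after seeing the data, Kdr was 1.92-fold lower than in KO control (-0.94, SE 0.08) and 1.86-fold lower than in WT NTS kidneys (-0.90, SE 0.07), and neither pair of groups overlapped. These ratios are given as a description, with no test, and they show unequal signal of the genes compared and not which of them moved.

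**Figure D2:**
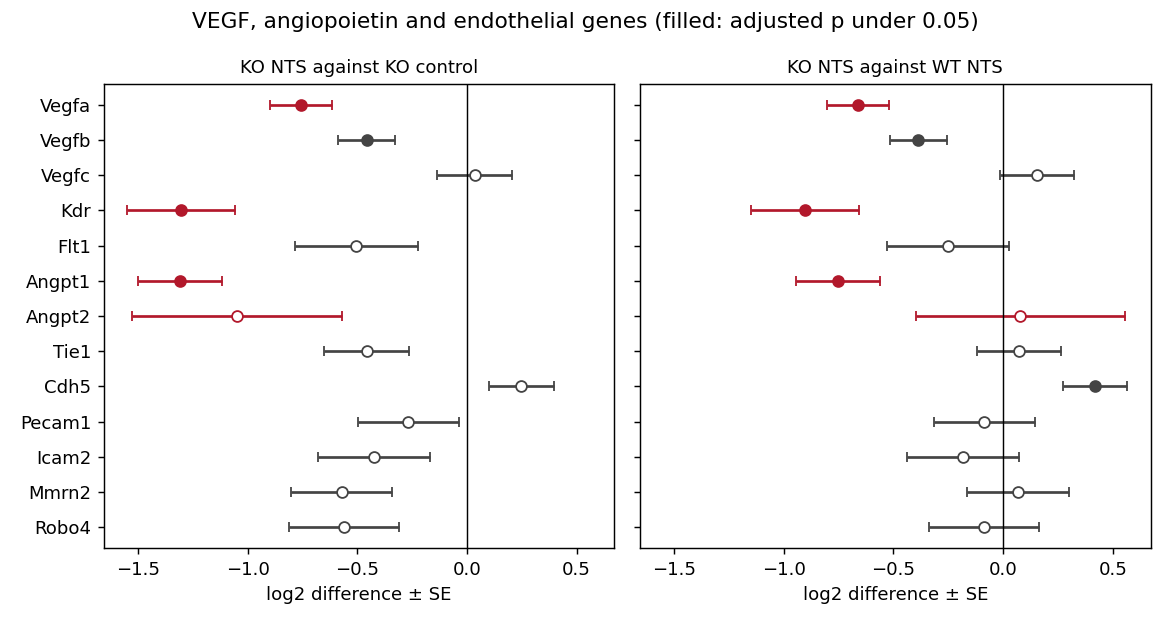
Log2 difference of the 4 genes (red) and of other VEGF, Tie and endothelial genes (grey) in KO NTS against KO control kidneys and in KO NTS against WT NTS kidneys, with bars for the SE from limma and filled points for an adjusted p under 0.05. Kdr lies at -1.30 and -0.90, and the 7 endothelial markers lie between -0.57 and 0.42.

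Angpt1, the Tie2 agonist, had signals of 280.24, 322.83 and 279.05 in KO NTS kidneys, against 606.54, 782.35 and 812.04 in KO control kidneys. In WT NTS kidneys its signals were 480.41, 447.31 and 564.44, against 483.35, 776.35 and 587.44 in WT control kidneys. The KO NTS kidneys were again the lowest 3 of the 12, and WT NTS kidneys overlapped the WT control range. The means were 294 ± 24.9 in KO NTS and 734 ± 111 in KO control kidneys (SD, n = 3 each). The log2 difference in KO kidneys was -1.31 (SE 0.19, 95% interval -1.73 to -0.89, limma adjusted p = 0.000268), and it was called under all 24 alternatives tried. In WT kidneys it was -0.29 (SE 0.19, 95% interval -0.71 to 0.13, limma adjusted p = 0.412). KO NTS kidneys were lower than WT NTS kidneys by -0.75 on the log2 scale (SE 0.19, limma adjusted p = 0.0112). That call was lost without WT NTS 3 (-0.66, limma adjusted p = 0.0546) and with positive control scaling (-0.61, limma adjusted p = 0.0688).

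Angpt2, the context-dependent Tie2 ligand, had signals of 214.36, 155.47 and 103.57 in KO NTS kidneys, against 527.71, 387.39 and 150.76 in KO control kidneys. In WT NTS kidneys its signals were 179.55, 94.88 and 171.66, against 637.14, 244.0 and 376.96 in WT control kidneys. The WT groups did not overlap, as for 7.24% of genes in that direction, whereas KO control 3 lay within the KO NTS range. Over both genotypes, 5 of the 6 untreated kidneys lay above all 6 treated ones, a count that Angpt1 shared. How many of all genes tested share it was not counted. The Angpt2 log2 difference after serum was -1.44 in WT kidneys (SE 0.48, 95% interval -2.48 to -0.39), with an unadjusted p of 0.0111 and a limma adjusted p of 0.0952. In KO kidneys it was -1.05 (SE 0.48, 95% interval -2.09 to -0.01, limma adjusted p = 0.0897). The SE of Angpt2 was the largest of the 4 genes, and its coefficient of variation over 3 kidneys was 35.1% in KO NTS, 53.6% in KO control, 31.5% in WT NTS and 47.7% in WT control kidneys. Without KO control 3 the KO difference was -1.57 and was called (limma adjusted p = 0.0154). Without WT control 2 the WT difference was -1.77 and was called (limma adjusted p = 0.045). KO NTS and WT NTS kidneys overlapped, with a log2 difference of 0.08 (SE 0.48, 95% interval -0.96 to 1.12, limma adjusted p = 0.915).

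In WT kidneys 0 of the 4 genes were called after serum, where 2.51% of all genes were called lower and 5.47% higher. Only 1 of the 4, Angpt2, had an unadjusted p under 0.05, as did 152 of all 677 genes. The intervals of Vegfa (-0.17 to 0.45) and Kdr (-0.49 to 0.58) in WT kidneys include changes in either direction. The Angpt1 interval (-0.71 to 0.13) reaches a larger fall than either, so equal levels were not shown for these 3 genes.

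**Figure D3:**
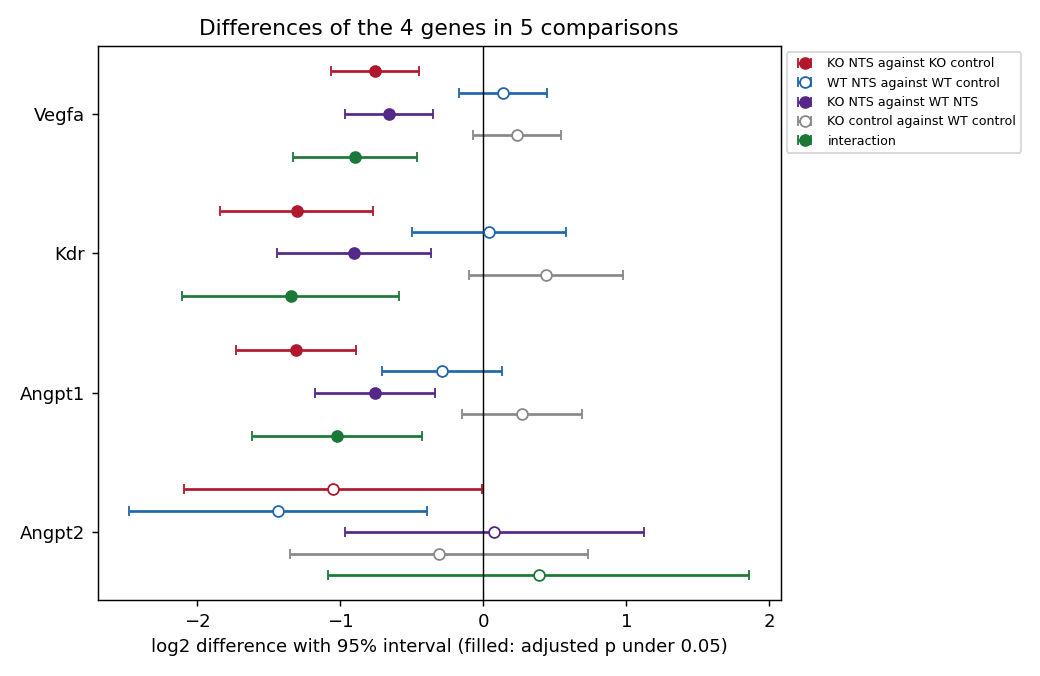
Log2 differences of the 4 genes in 5 comparisons, with bars for the 95% interval from limma and filled points for an adjusted p under 0.05; interaction is the serum change in KO minus that in WT kidneys. Vegfa, Kdr and Angpt1 lie below 0 with intervals that exclude it in KO NTS against KO control kidneys (-0.76, -1.30 and -1.31), and Angpt2 has the widest interval in each comparison.

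Of the 7 angiopoietin and Tie genes listed, 4 were on the panel. Beside Angpt1 and Angpt2, Tie1 had a log2 difference of -0.46 after serum in KO kidneys (limma adjusted p = 0.0679) and 0.07 between KO NTS and WT NTS kidneys (limma adjusted p = 0.788). Angptl4, an angiopoietin-like inhibitor of lipoprotein lipase that does not act through Tie2, had signals of 3364.8, 4700.95 and 1167.99 in KO NTS kidneys, against 535.38, 384.14 and 438.77 in KO control kidneys. It was called higher in KO kidneys (2.56, limma adjusted p = 0.013), while its range in WT control kidneys was 366.48 to 1773.87 and overlapped that of WT NTS kidneys. The call was lost with each sample centred on its median. So the list had 1 gene called higher and 1 called lower in KO kidneys, with a median of -0.75, and the 2 that were called encode proteins with different functions. Tek, which encodes Tie2 itself, was not analysed here.

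The balance of Angpt2 to Angpt1 within each kidney varied widely within groups. The log2 ratio of their signals averaged -0.96 ± 0.53 in KO NTS, -1.22 ± 1.13 in KO control, -1.79 ± 0.41 in WT NTS and -0.64 ± 1.03 in WT control kidneys (SD, n = 3 each), and every pair of groups compared overlapped. KO NTS kidneys were higher than WT NTS kidneys by 0.83 (SE 0.39). Their overlap was narrow, with a lowest KO NTS value of -1.43 and a highest WT NTS value of -1.42. The change after serum was 0.26 (SE 0.72) in KO and -1.15 (SE 0.64) in WT kidneys. Untreated KO kidneys differed from untreated WT kidneys by -0.58 (SE 0.88). No test was run on this ratio. The log2 ratio of Vegfa to Kdr signal averaged -0.03 ± 0.30 in KO NTS and -0.58 ± 0.16 in KO control kidneys (SD, n = 3 each), which did not overlap. The corresponding means were -0.27 ± 0.13 in WT NTS and -0.37 ± 0.34 in WT control kidneys, which did. Only differences of a ratio between groups can be read, since its level depends on how well each probe hybridizes.

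**Figure D4:**
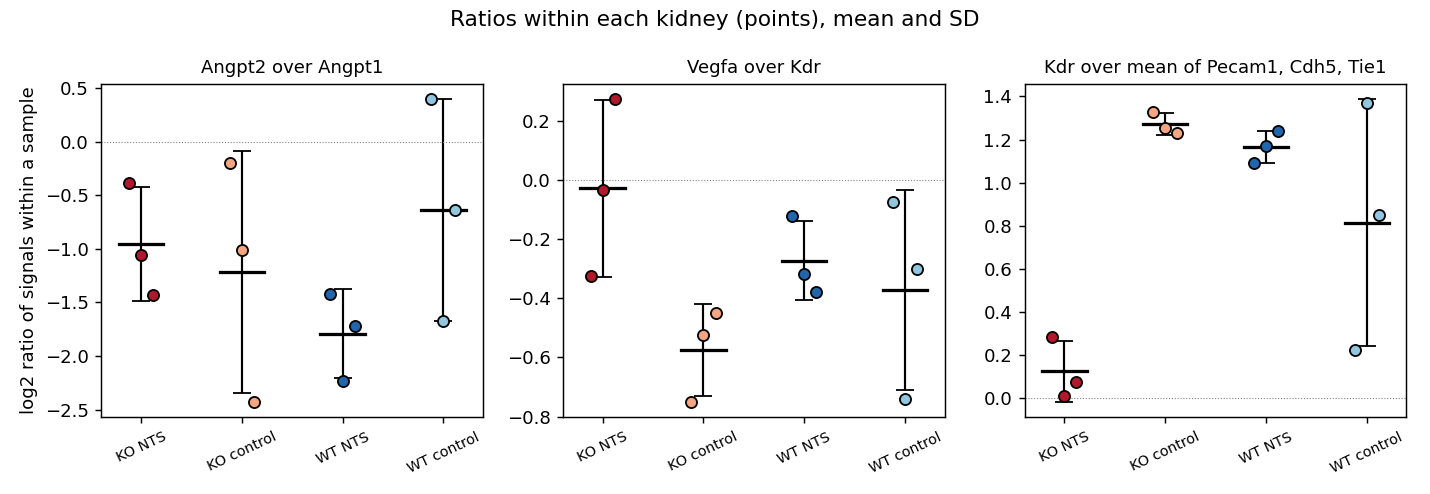
Log2 ratios within each kidney of Angpt2 to Angpt1, of Vegfa to Kdr, and of Kdr to the mean of Pecam1, Cdh5 and Tie1, by group, with 1 point per kidney and a bar at the mean of 3 kidneys with its SD. The Kdr ratio is 0.01 to 0.28 in KO NTS kidneys and 1.23 to 1.33 in KO control kidneys, and the Angpt2 to Angpt1 ratio overlaps between all groups.

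Without serum, no difference between the genotypes was called for these genes. Limma called 0 of the 4, and 0 of the 4 had an unadjusted p under 0.05; over all 677 genes 0% were called in either direction and 57 had an unadjusted p under 0.05. The log2 difference of KO control against WT control kidneys was 0.24 for Vegfa (95% interval -0.07 to 0.54, limma adjusted p = 0.669), and its groups did not overlap, as for 7.09% of genes in that direction. For Kdr it was 0.44 (95% interval -0.10 to 0.98, limma adjusted p = 0.669). For Angpt1 it was 0.27 (95% interval -0.15 to 0.69, limma adjusted p = 0.722). For Angpt2 it was -0.31 (95% interval -1.35 to 0.73, limma adjusted p = 0.926). WT control 1, the kidney with the most genes at the lower limit of detection, had the lowest Vegfa, Kdr and Angpt1 and the highest Angpt2 of the WT control group. With WT control 1 and WT NTS 1 both left out, a choice made after seeing the data, the differences were 0.14 for Vegfa, 0.20 for Kdr, 0.11 for Angpt1 and 0.048 for Angpt2.

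The serum change was then compared between genotypes by the interaction term, the change in KO minus the change in WT kidneys. It was -0.90 for Vegfa (SE 0.20, limma adjusted p = 0.0351), -1.34 for Kdr (SE 0.35, limma adjusted p = 0.0356) and -1.02 for Angpt1 (SE 0.27, limma adjusted p = 0.0384). For Angpt2 it was 0.39 (SE 0.68, 95% interval -1.09 to 1.86, limma adjusted p = 0.727). These 3 were among 5 genes (0.739%) called with a lower change in KO, against 9.6% called with a higher one. The calls depended on the settings and on single kidneys. With positive control scaling none of the 3 was called (limma adjusted p = 0.105, 0.0789 and 0.111), and without a variance trend Kdr and Angpt1 were not (limma adjusted p = 0.0505 for each). With 1 kidney left out in turn, Vegfa was called in 3 of 12 fits, without KO NTS 2, WT NTS 1 or WT control 2, and Kdr and Angpt1 in 2 of 12, without WT NTS 1 or WT control 2. In the other 9 fits no gene of the panel was called. The differences themselves ran from -0.999 to -0.80 for Vegfa, -1.58 to -1.10 for Kdr and -1.20 to -0.86 for Angpt1, and limma adjusted p reached 0.0911, 0.097 and 0.11. With WT NTS 1 and WT control 1 both left out, the differences were -0.80, -1.17 and -0.88, and all 3 were called (limma adjusted p = 0.015, 0.0223 and 0.0303).

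The housekeeping scaling matters for these genes because the panel as a whole shifted under it in KO NTS kidneys, with a median log2 difference of 0.42 against KO control and 0.45 against WT NTS kidneys. Relative to that median, KO NTS against KO control kidneys differed by -1.18 for Vegfa, -1.72 for Kdr, -1.73 for Angpt1 and -1.47 for Angpt2. Against WT NTS kidneys the corresponding values were -1.11, -1.35, -1.20 and -0.37. Over 5 scalings, the difference from KO control kidneys ran from -1.53 to -0.48 for Vegfa, from -2.08 to -1.03 for Kdr and from -2.08 to -1.03 for Angpt1. Direction was the same throughout for these 3. The difference of Angpt2 from WT NTS kidneys changed sign, between -0.57 and 0.23. Of the 20 housekeeping genes, Sdha and Tfrc had patterns close to that of Angpt1, as given below. With these 2 and 4 other housekeeping genes left out of the scaling, the Angpt1 difference was -1.37 from KO control and -0.77 from WT NTS kidneys, and both were called.

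**Figure D5:**
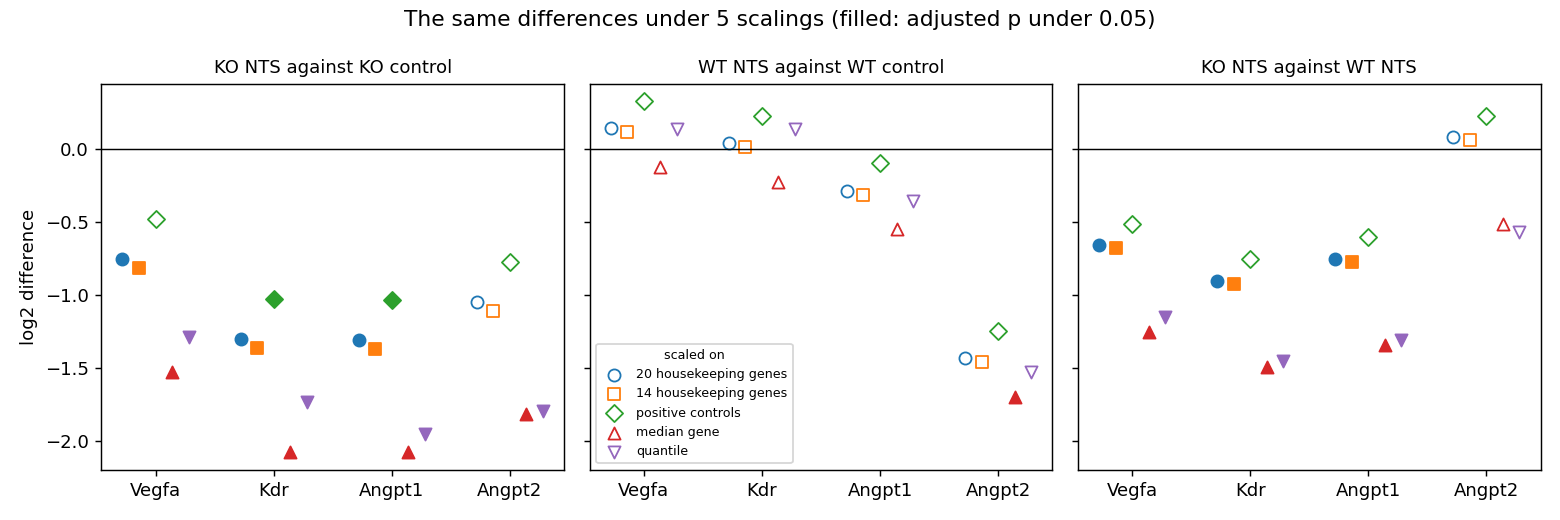
Log2 difference of the 4 genes in 3 comparisons under 5 scalings of each sample, 1 symbol per scaling, filled where the adjusted p was under 0.05. All symbols of Vegfa, Kdr and Angpt1 lie below 0 in KO NTS against KO control and in KO NTS against WT NTS kidneys, and those of Angpt2 lie on both sides of 0 in the second of these (-0.57 to 0.23).

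Across the 12 kidneys, Vegfa, Kdr and Angpt1 had similar patterns and Angpt2 had another. Pearson r of log2 signal was 0.929 for Vegfa and Kdr, 0.891 for Vegfa and Angpt1 and 0.889 for Kdr and Angpt1. For Angpt2 it was 0.291 with Vegfa, 0.371 with Kdr and 0.394 with Angpt1. Among all genes tested, the closest to Vegfa were Kdr, Fbp1 (0.919), which encodes the gluconeogenic fructose bisphosphatase of proximal tubule, and Angpt1. The closest to Kdr were Fbp1 (0.945), Vegfa and Prlr (0.906), the prolactin receptor gene. The closest to Angpt1 were Ptcd2 (0.952), Sdha (0.941), a subunit of succinate dehydrogenase, and Tfrc (0.938), the transferrin receptor. The closest to Angpt2 were Pla1a (0.902), a phospholipase, Ihh (0.87), a hedgehog ligand, and Aldoc (0.869), a glycolytic aldolase. The 12 points share 4 group means and 1 scaling per sample, so these r describe the groups as much as the kidneys.

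Markers of other cell types moved in the same kidneys. Tubule markers summed to 13260 to 24500 in KO NTS kidneys, 76120 to 84550 in KO control kidneys, 42320 to 63120 in WT NTS kidneys and 53820 to 88620 in WT control kidneys. The 4 on the panel, of 13 listed, were all called lower after serum in KO kidneys, with a median of -2.16, and 2 of them, Egf (-2.58) and Fbp1 (-1.39), were called lower in KO NTS than in WT NTS kidneys. Over all genes tested, 8.57% and 2.36% were called lower in these comparisons. Egf, the growth factor of the distal tubule, also fell in WT kidneys (-1.51, limma adjusted p = 0.0158). Cdkn1c, the 1 podocyte marker on the panel of 8 listed, had signals of 654.87, 538.76 and 520.71 in KO NTS kidneys, against 1043.31, 961.36 and 1173.49 in WT NTS kidneys. It was lower in KO NTS than in WT NTS kidneys by -0.89 on the log2 scale (limma adjusted p = 0.005), while its difference from KO control kidneys was -0.33 (limma adjusted p = 0.0929). In WT kidneys Cdkn1c differed by 0.28 after serum (limma adjusted p = 0.303). KO control differed from WT control kidneys by -0.28 (limma adjusted p = 0.669). The Cdkn1c interaction of -0.62 was not called (limma adjusted p = 0.0834).

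Pdgfrb, a receptor of pericytes and mesangial cells and the 1 marker of those cells on the panel, had signals of 827.93 to 1076.89 in KO NTS kidneys, against 422.02 to 528.81 in KO control kidneys. It rose in KO kidneys by 0.99 (limma adjusted p = 0.00542), and was higher in KO NTS than in WT NTS kidneys by 1.29 (limma adjusted p = 0.00505). The first of these calls was lost with each sample centred on its median. Leukocyte markers summed to 2831 to 3629 in KO NTS kidneys, 1162 to 1254 in KO control kidneys, 940.3 to 2169 in WT NTS kidneys and 1029 to 1183 in WT control kidneys. Of the 12 leukocyte markers tested, 8 were called higher and 0 lower in KO kidneys, beside 39.6% of all genes called higher. The largest of these differences were 3.08 for Cd14 and 2.85 for Itgam. The other 4 markers were not called, and 2 of the 12 were below 0. With each sample centred on its median the leukocyte counts were 3 higher and 4 lower. The part of these cell types in the levels of Vegfa, Kdr and Angpt1 was not tested.

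Vegfa is itself a target of hypoxia-inducible factors, and the other hypoxia genes on the panel moved in both directions. Of 11 tested, 2 were called higher in KO kidneys after serum, Anln (3.26), a cytokinesis gene on the hypoxia list used here, and Hk2 (2.20), a hexokinase. Hk2 was at the detection floor in KO control 1 (12.48), KO control 2 (14.82), WT control 2 (14.72) and WT control 3 (12.41). In WT NTS kidneys it was 13.55 to 22.31, so all its differences are measured against values at or near the floor. A further 2 were called lower, Aldoc (-1.34) and Bnip3 (-0.76), a mitophagy gene, and the median was -0.02. With each sample centred on its median, 2 were called higher and 6 lower. Between KO NTS and WT NTS kidneys, 3 were called higher, Hk2 (2.12), the glucose transporter gene Slc2a1 (0.96) and the glycolysis regulator Pfkfb3 (0.92), and 0 lower, beside the 31.2% of all genes called higher. With median centring or quantile normalization this count was 1 higher and 2 lower. In WT kidneys Anln was called higher (2.11) and Aldoc (-2.10), Pfkfb3 (-1.07) and Slc2a1 (-1.01) lower.

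Among 15 other angiogenesis regulators, 5 were called higher and 2 lower in KO kidneys after serum, with a median of 0.41, close to the 0.42 of all genes. Edn1, the vasoconstrictor endothelin-1, had signals of 603.74, 846.47 and 838.12 in KO NTS kidneys, against 109.48, 69.25 and 71.74 in KO control kidneys, a log2 difference of 3.19 (limma adjusted p = 0.000161). It was also higher in KO NTS than in WT NTS kidneys (1.98, limma adjusted p = 0.00577). Thbs1, the angiogenesis inhibitor thrombospondin-1, was higher in KO NTS than in WT NTS kidneys by 1.30 (limma adjusted p = 0.00577). Cxcl12, a chemokine that guides vessel growth, fell in KO kidneys (-1.69, limma adjusted p = 0.000485). Each of Edn1 and Thbs1 was called higher in both comparisons under all 5 scalings.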

How the data were processed

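Kidney RNA of 12 mice was measured on a panel of 750 endogenous and 20 housekeeping genes with 8 negative and 6 positive controls. Total RNA came from a Qiagen column kit, per the labels' protocols. The sample titles gave each mouse its group and number, and the design text gives 3 mice per group. The authors deposited a signal for each gene that they had already normalized. In the deposited signal, the housekeeping genes had a geometric mean of 380.1 (384.2 in KO control 3), and the lowest value of a sample equalled the geometric mean of its negative controls (10.02 to 15.11). In each sample all signals above that floor were multiples of a single step of 0.955 to 1.09, within a tolerance of 0.0055, so they are scaled probe counts. Raw counts were not at hand, and no count model was run. A column of percent values, deposited by the authors, counts samples over their detection threshold and read 100% for the 4 genes. Depth beyond the summed signal is unknown. The genome build, instrument and software are not given in the sources used here.

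Tests used limma 3.58.1 in R 4.3.3 on log2(signal + 1) with all 12 samples, 1 mean per group and a variance trend. Fold changes on this scale understate changes of low genes. The filter asked for a signal of 20 or more in 3 or more samples. P-values are two-sided, with Benjamini-Hochberg adjustment over 677 genes per comparison and a threshold of 0.05. The code was tested on simulated data. The 4 genes and the 10 gene lists were chosen with earlier results of these data known. Named genes were the 4 genes, all members of the VEGF and angiopoietin lists, up to 4 with the smallest p of each other list, and the 3 genes most like each of the 4. Alternatives were other pseudocounts, filters, scalings, variance models and samples in the fit.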

Additional observations from a re-analysis of the deposited data

Results flagged for a closer look

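With the deposited scaling, the serum change differed between the genotypes, by limma's interaction term (change in KO minus change in WT, log2, adjusted p under 0.05 over all genes), for 12 genes of the lists. For Vegfa the difference was -0.90, for Kdr -1.34 and for Angpt1 -1.02, and all 3 fell in KO kidneys without a call in WT kidneys. For the tubule genes Egf and Fbp1 it was -2.42 and -1.73. For the leukocyte genes Cd14 and Itgam it was 2.62 and 2.26. For the metabolic genes Hk2 and Slc2a1 it was 1.94 and 1.48, and Hk2 was at or near the detection floor outside KO NTS kidneys. For Edn1 it was 2.52, for Thbs1 1.40 and for Tgfbr2, a TGF-beta receptor gene, 1.01. Under 5 scalings all 12 kept their sign. Egf, Fbp1 and Edn1 were called in 5 of them, Vegfa, Kdr, Angpt1 and Cd14 in 4, Itgam in 3, and Hk2, Slc2a1, Thbs1 and Tgfbr2 in 2. With 1 kidney left out in turn, the number of genes called over the whole panel ran from 0 to 207, beside 70 with all kidneys.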

How the results depend on the processing

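Over 20 results of the 4 genes and their alternatives, 414 of 476 values kept direction and side of the threshold, 41 lost a call, 6 gained one and 15 changed sign, all 15 among results without a call. Leaving out 1 kidney gave 3 to 4 of the 4 genes called in KO NTS against KO control, 0 to 1 in WT NTS against WT control, 1 to 3 in KO NTS against WT NTS and 0 to 3 for the interaction. Scaling on positive controls gave 2, 0, 0 and 0, centring on the median gave 1 in WT NTS against WT control, and fitting no variance trend gave 1 for the interaction. The cause was not tested. In WT NTS against WT control, Vegfa was -0.13 with median centring, and Kdr was -0.22 with median centring, -0.11 without WT NTS 3, -0.20 without WT control 1 (-0.20 to 0.27 over all kidneys left out singly) and -0.13 without WT NTS 1 and WT control 1. In KO NTS against WT NTS, Angpt2 was -0.51 with median centring, -0.57 with quantile normalization, -0.17 without KO NTS 1 and -0.21 without WT NTS 2 (-0.21 to 0.35 over all kidneys). In KO control against WT control, Angpt2 was 0.22 without KO control 3 and 0.048 without WT control 1 (-0.68 to 0.22 over all kidneys), and 0.048 without WT NTS 1 and WT control 1. The Angpt2 interaction was -0.12 with median centring, -0.26 with quantile normalization and -0.14 without KO control 3 (-0.14 to 0.76 over all kidneys). In KO NTS against KO control, Angpt2 was called with median centring (-1.82) and quantile normalization (-1.80).

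Genes called over the whole panel in WT NTS against WT control were 54, but 2 when only those groups entered the fit and 9 to 94 with 1 kidney left out. They were 227 in KO NTS against WT NTS, with 129 to 328 when 1 kidney was left out and 141 to 345 otherwise, and 70 for the interaction, with 11 under positive control scaling. In KO control against WT control, leaving out WT control 2 gave 22 in place of 0. The labels do not say whether equal replicate numbers link kidneys. Deviations of same-numbered kidneys correlated at -0.298 to 0.395, which cannot settle it. With the replicate number as a block, Angpt2 was called in KO NTS against KO control (-1.05, limma adjusted p = 0.043), which made 4 of the 4 genes, and no other call of the 4 genes changed. Ratios within a kidney moved by less than their spread, except that Kdr over all 7 endothelial markers was -0.94 in KO NTS against KO control and -0.90 in KO NTS against WT NTS. With 3 kidneys a group, the interval of Angpt2 spans about 2 log2 units.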
